A study of Mus musculus with 2 samples.

Results

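The matrix and stellate cell genes Dcn, Postn, Sparc, Bgn, Col3a1 and Lrat were followed across the cell clusters of a liver single-cell RNA-seq data set. They were chosen from the authors' table of cluster markers over all cells as genes that set the cluster named HSC (hepatic stellate cell) / fibroblast beside the cluster named Endothelial cell, and they are 6 of the 1755 genes in that table. All 6 were found in it, in 11 rows over 3 of its 12 clusters, and none was found in the table of the hepatocyte clusters. Hepatocytes were isolated by digesting perfused livers of fasted wild type BALB/c mice. The mice had received daily intraperitoneal injections for 5 days, either of PBS or of IL-33 as a recombinant protein (rIL-33, 0.5 µg a day). The study's methods state that the mice were male and give an age of 8 to 10 weeks for hepatocyte isolation; the number of mice per library is not given in the sources used here. There was 1 library per condition, prepared in droplets with the 10x Genomics 3ʹ chemistry, hence 2 in all and no replicates. Cells were not sorted, so that stellate and endothelial cells are those that came along with the hepatocytes. The authors pooled both libraries in the table, and no value could be given for PBS and rIL-33 apart.

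Stellate cells lie between the sinusoidal endothelium and the hepatocytes. They store vitamin A as retinyl esters in lipid droplets, and after injury they can become matrix-producing myofibroblasts. Dcn and Bgn encode decorin and biglycan, small leucine-rich proteoglycans that bind collagen fibrils. Col3a1 encodes the chain of type III collagen, a fibril-forming collagen. Sparc encodes a collagen-binding matricellular glycoprotein, and Postn encodes periostin, a matricellular protein that binds integrins. Lrat encodes lecithin retinol acyltransferase, the enzyme that esterifies retinol, and is the member that marks vitamin A storage rather than matrix.

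The measure used throughout is the authors' share of cells with a value above 0, given for a cluster and for all other cells. It is a share and not a level, so a gene at 100% in a cluster can have any level there. The tables give no cell number, UMI count or depth with the shares, and no cell number was inferred from them, so no interval for the counting error is given. A second limit could be measured. For 825 pairs of rows, the same gene was listed for the same hepatocyte cluster both in the table of all cells and in that of hepatocytes. The share was higher in the table of all cells in 695 pairs, within 0.1 percentage points in 115 and lower in 15, with a median difference of 10.5 points. The 2 tables therefore do not hold the same quantity, and the shares of the 6 genes, which are in the table of all cells alone, may stand above plain detection rates. In all 3742 rows a share reached 25% in the cluster or outside it, and the authors' fold change was positive. Whether further limits decided which genes were listed is not known here. A gene without a row can still be expressed in the cluster.

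In GRCm38, the assembly also called mm10, Dcn lies on chromosome 10 from 97479609 to 97518143 and Bgn on chromosome X from 73483602 to 73495933. Postn (chromosome 3, 54361109 to 54391037) and Lrat (chromosome 3, 82892579 to 82903973) lie on the same chromosome but far apart. Sparc lies on chromosome 11 from 55394500 to 55423183, and Col3a1 on chromosome 1 from 45311538 to 45349706. Col3a1 has 51 exons in its longest transcript of the GENCODE M21 basic set, Postn 22, Sparc 10, Dcn and Bgn 8 each, and Lrat 2. The start regions of the members are shown because these genes were listed together for 1 cluster. RefSeq start sites of GRCm38.p6 were found for 5 of the 6 members, without Dcn. Each line gives the 120 bases just before the start, 5ʹ to 3ʹ on the strand of the gene, with capitals marking matches on either strand to TATAAA, the core promoter motif, and to GGGCGG, known as the GC box.
Postn, chr3:54360987-54361106, plus strand: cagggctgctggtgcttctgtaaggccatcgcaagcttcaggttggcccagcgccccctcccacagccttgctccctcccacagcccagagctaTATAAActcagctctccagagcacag
Bgn, chrX:73483481-73483600, plus strand: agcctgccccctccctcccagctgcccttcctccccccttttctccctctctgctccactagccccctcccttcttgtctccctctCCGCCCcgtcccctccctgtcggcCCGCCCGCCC
Sparc, chr11:55420081-55420200, minus strand: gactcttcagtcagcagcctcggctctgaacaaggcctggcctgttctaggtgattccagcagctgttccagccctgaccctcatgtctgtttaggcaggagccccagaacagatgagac
Col3a1, chr1:45311418-45311537, plus strand: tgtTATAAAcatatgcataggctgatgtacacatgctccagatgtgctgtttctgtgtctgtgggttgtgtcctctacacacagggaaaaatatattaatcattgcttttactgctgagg
Lrat, chr3:82903975-82904094, minus strand: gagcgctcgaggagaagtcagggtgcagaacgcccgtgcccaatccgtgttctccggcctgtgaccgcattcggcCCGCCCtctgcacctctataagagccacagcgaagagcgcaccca

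Postn held TATAAA from 26 to 21 bases before its start, and Col3a1 held it farther away, from 117 to 112 bases before. Of all 32851 start regions in the RefSeq table, 6.34% held this motif in the same window. A GC box was found in Lrat, from 45 to 40 bases before the start, and 3 times in Bgn, where 2 of the matches overlap, against 26.5% of all regions. A second RefSeq start of Postn, 1842 bases from the nearest GENCODE start, held neither motif. The start used for Sparc, at 55420080, is also a GENCODE start but lies inside the gene. On its minus strand that gene begins at 55423183, and the region before that position was not examined. CANNTG (E-box) was found in 3 of the 6 member regions, those of Col3a1, Sparc and Bgn, and in 40.2% of all regions. TGANTCA (AP-1 site) and GGAATG (TEAD site) were found in 0 of 6, against 3.41% and 5.82% of all regions. The start regions of the members thus had no motif of these 5 in common. A match or its absence describes the letters of the window alone.

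In the HSC / fibroblast cluster, all 6 members were listed, with shares between 89.5% and 100%. Of the 1755 genes, 30.5% were listed for this cluster, and since the members were chosen from these rows nothing is read from the difference. All 6 also stood at least 50 percentage points higher in the cluster than outside it, which held for 16.2% of the genes. Among the matrix proteins, Dcn had a value above 0 in 100% of the cells of the cluster and in 12.5% of all other cells. Bgn had 100% against 6.0%, Sparc 100% against 14.0% and Postn 100% against 18.8%. Col3a1 had 89.5% against 1.0%. The vitamin A gene Lrat had 94.7% against 6.7%. The members thus filled nearly the whole cluster and differed mainly in how often they appeared outside it. The shares in this cluster move in steps: its 535 rows hold only 16 distinct values, at least 5.2 percentage points apart, so the 6 members sit on its upper 3 steps and smaller differences between them cannot be seen. Steps this wide mean that each share in this small cluster rests on few cells. The order outside the cluster, from Postn and Sparc through Dcn, Lrat and Bgn to Col3a1, spans 1.0% to 18.8% and sets the ratio of both shares. This ratio was 89.5 for Col3a1, 16.7 for Bgn, 14.1 for Lrat, 8.0 for Dcn, 7.14 for Sparc and 5.32 for Postn. Col3a1 was therefore the member least often seen outside the cluster, although its share inside was the lowest of the 6.

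By the difference between both shares, the members ranked between 14 (Bgn) and 62 (Postn) of the 535 genes listed for the HSC / fibroblast cluster. Between them stood Col3a1 at rank 28, Lrat at 30, Dcn at 35 and Sparc at 41. The 10 genes with the largest difference held no member. They were Ltbp4, which encodes a binding protein of latent TGF-β, Gdf10, a growth factor gene of the TGF-β superfamily, the collectin gene Colec11, Emilin1, which encodes an elastic fibre glycoprotein, Tmem204, the pericyte gene Rgs5, Col1a2, a type I collagen chain, Abcc9, Mustn1 and Sod3, an extracellular superoxide dismutase. Ltbp4 reached 100% inside the cluster against 0.1% of all other cells, and Col1a2 100% against 4.1%. These leading genes filled the cluster as the members did, and were rarer outside it than Dcn, Sparc and Postn.

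**Figure D1:**
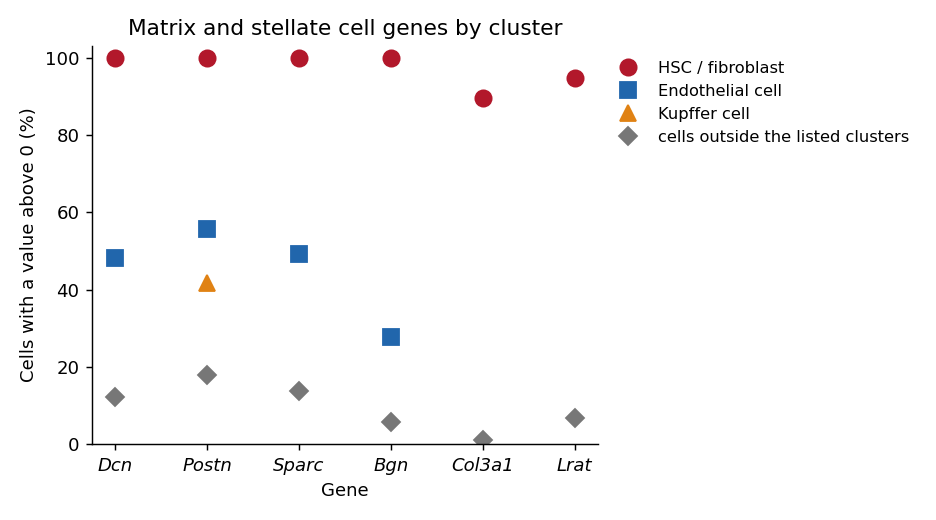
Share of cells with a value above 0 (y axis, in %) for each member (x axis). Circles give the HSC / fibroblast cluster, squares the Endothelial cell cluster, the triangle the Kupffer cell cluster and diamonds the computed share in the cells outside the clusters for which the gene is listed. All 6 circles lie between 89.5% and 100%, and the 4 squares between 27.8% and 55.6%. A missing symbol means that the gene is not listed for the cluster.

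In the Endothelial cell cluster, 4 of the 6 members were listed, all of them matrix genes, against 5.58% of the 1755 genes. A share at least 25 percentage points higher than outside the cluster was seen for 3 of the 6, against 0.855% of the genes, and again nothing is read from this, since these rows chose the members. Postn had a value above 0 in 55.6% of its cells and in 18.6% of all other cells. Dcn had 48.1% against 12.3%, and Sparc 49.1% against 13.8%. Bgn had 27.8% against 6.0%, and lies just above the 25% that every row reached inside or outside its cluster. Postn, Dcn and Sparc ranked 1, 2 and 3 of the 98 genes of the cluster by the difference between both shares, at 37.0, 35.8 and 35.3 percentage points, and Bgn ranked 21 at 21.8 points. Nothing is read from these ranks either, since these rows chose the members. Rank 4 followed closely, at 34.7 points, with Fabp4, which encodes a fatty acid binding protein and had 50% against 15.3%. Ranks 5 to 7 were Gpihbp1, the capillary anchor of lipoprotein lipase, with 32.4% against 1.3%, the transcription factor gene Ets1, with 41.7% against 10.7%, and Dnase1l3, a secreted DNase, with 29.6% against 0.5%. By the ratio of both shares the order was another: it was 3.91 for Dcn, 4.63 for Bgn, 3.56 for Sparc and 2.99 for Postn, while Gpihbp1 and Dnase1l3 were far rarer outside the cluster. Col3a1 and Lrat had no row for the Endothelial cell cluster, and their shares in it are not known here.

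Between both clusters, the share of cells with Dcn was 51.9 percentage points higher in HSC / fibroblast than in Endothelial cell, and that with Sparc 50.9 points. Postn was 44.4 points higher and Bgn 72.2 points. The ratio of both shares was between 1.80 (Postn) and 3.60 (Bgn). All 4 genes stood at 100% in HSC / fibroblast, so these differences restate the order of their shares in Endothelial cell. The order of Dcn (48.1%) and Sparc (49.1%) in the Endothelial cell cluster is close to the smallest step of 0.9 points between its shares. With both libraries pooled and no replicates, no spread stands beside these differences and no test was run.

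**Figure D2:**
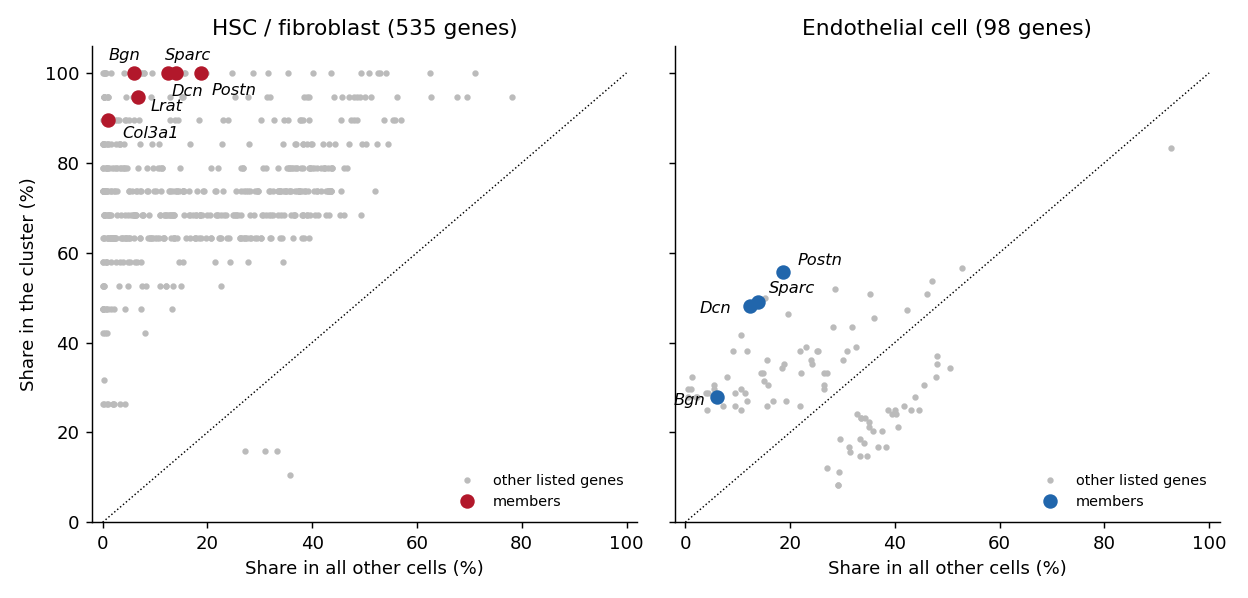
Each point is a gene listed for the HSC / fibroblast cluster (left) or the Endothelial cell cluster (right), with its share in all other cells (x axis, in %) and in the cluster (y axis, in %), and the dotted line marks equal shares. Members are the large points. On the left the shares in the cluster fall on 16 levels, and the members lie on the upper 3 of them. On the right, Postn, Dcn and Sparc lie farthest above the line, and 36 of the 98 genes lie below it.

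Postn was the only member listed for another cluster as well. In Kupffer cells, the resident macrophages of the liver, it had a value above 0 in 41.7% of the cells against 18.3% of all other cells, and it ranked 239 of 499 genes there by the difference of 23.4 points. Of the 1755 genes, 28.4% were listed for Kupffer cells. Among the 3 clusters for which it was listed, the share of Postn was thus highest in HSC / fibroblast, followed by Endothelial cell and Kupffer cell. Its share in each of the other clusters is not known here. Of 10 Kupffer cell genes that were tallied, 9 were in the table, and 0 of these were listed for HSC / fibroblast or Endothelial cell. Over all 1755 genes, 30.5% and 5.58% were listed for these clusters. The 0 does not show that RNA of these genes is absent from either cluster.

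How the cells with a value above 0 were spread over the data set was computed from the same shares. The share over all cells must be equal whichever row of a gene it is computed from, and over 1115 genes listed for at least 2 clusters this balance gave the relative cluster sizes. HSC / fibroblast made up 0.171% of all cells, Endothelial cell 0.991% and Kupffer cell 2.68%. Outside the clusters for which it was listed, Dcn had a value above 0 in 12.1% of the cells (12.1 to 12.2% within the rounding of the shares). The share was 17.8% for Postn (17.7 to 17.8%), 13.6% for Sparc (13.6 to 13.7%) and 5.81% for Bgn (5.76 to 5.86%). For Col3a1 and Lrat it is the outside share of their only row, 1.0% and 6.7%. By the relative cluster sizes, these remaining cells are mostly hepatocytes. Whether their shares stand for expression in these cells, for free RNA or for values above plain detection rates was not tested. In the Endothelial cell cluster the share of Dcn was 3.96 times the remaining one, that of Sparc 3.60 times, of Postn 3.13 times and of Bgn 4.79 times. All 4 shares lay above the remaining share, by 22.0 points (Bgn) to 37.8 points (Postn). The remaining share is close to the outside share of the rows that chose the members, so nothing is read from this direction.

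Because both clusters were small, most cells with a value above 0 lay elsewhere. For Dcn, 1.35% of these cells were in HSC / fibroblast and 3.77% in Endothelial cell. For Sparc the portions were 1.21% and 3.44%, and for Bgn 2.76% and 4.45%. For Postn they were 0.901% and 2.91%, with a further 5.90% in Kupffer cells. For Lrat, 2.36% of the cells with a value above 0 were in HSC / fibroblast, and for Col3a1 13.3% (12.7 to 13.9% within rounding). Col3a1 was thus the member whose cells were most concentrated in HSC / fibroblast, and even so 86.7% of them lay outside it.

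Genes with a pattern most like that of each member were sought among genes listed for exactly the same clusters, by the largest difference in any of their shares. For Dcn, listed with 21 other genes for HSC / fibroblast and Endothelial cell alone, the nearest gene was Sparc, within 1.5 percentage points in all 4 shares. The next was Igfbp7, an insulin-like growth factor binding protein gene, within 7.3 points, and then Ptprb, an endothelial receptor tyrosine phosphatase gene, within 10.1 points. Igfbp7 had 100% in HSC / fibroblast and 46.3% in Endothelial cell. For Sparc, Dcn came first and Igfbp7 next, within 5.8 points. For Bgn the nearest was Prelp, a further small leucine-rich proteoglycan gene, within 4.6 points, with 100% in HSC / fibroblast and 32.4% in Endothelial cell. It was followed by Ehd3 (9.6 points) and Col4a1 (9.8 points), a basement membrane collagen chain, but by the mean difference of the shares only Prelp remained among the 3 nearest. Postn shared its 3 clusters with 3 genes only, and the nearest, Tgfbi, stood 29.7 points away. Tgfbi encodes a secreted protein related to periostin. Col3a1 and Lrat were among 159 genes listed for HSC / fibroblast and no other cluster. Nearest to Col3a1 were Bmp5 (0.3 points), the endothelial gene Plvap (0.7 points) and the transcription factor gene Lhx2 (0.8 points), and nearest to Lrat were Vipr1 (0.4 points), Col14a1 (2.3 points) and Cygb (5.2 points), a globin gene known from stellate cells.

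The other genes of the matrix were tallied from 4 lists with 78 genes in all, 5 of the members included. Of these, 29 were in the table, 27 were listed for HSC / fibroblast and 7 for Endothelial cell. Over the 1755 genes, 30.5% and 5.58% were listed for these clusters. Without the members, which were chosen from these rows, 22 and 3 genes were listed. These 22 genes had a median share of 97.4% in HSC / fibroblast, where the median over all 535 genes of the cluster was 73.7%, and a median of 4.3% in all other cells, where it was 15.3%. Most of the 22, such as Col1a2, Lum and Sparcl1, were in the table through this cluster alone. The lists were also chosen with earlier results of these data known, so nothing is read from these counts and medians. Of 16 collagen chains, 6 were listed for HSC / fibroblast. Col1a2, Col4a1 and Col4a2 had 100%, Col14a1 94.7% and Col5a1, a chain of type V collagen, 84.2%. For Endothelial cell 1 collagen chain was listed, Col4a1, with 30.6% against 15.8% of all other cells. The sixth chain of HSC / fibroblast was Col3a1 itself, so of the fibril-forming chains none was listed for Endothelial cell. Of 9 small leucine-rich proteoglycan genes, 4 were listed for HSC / fibroblast (Dcn, Bgn, Lum and Prelp), and 3 of these, without Lum, for Endothelial cell. Lum, which encodes lumican, had 84.2% against 1.1%. Of 35 matricellular and glycoprotein genes, 11 were listed for HSC / fibroblast, among them Fbln5 (89.5%) and Sparcl1 (94.7%), a gene related to Sparc, and 3 for Endothelial cell (Postn, Sparc and Igfbp7). Of 18 matrix enzymes and inhibitors, 6 were in the table. All 6 were listed for HSC / fibroblast and 0 for Endothelial cell, and at a share of 5.58% nothing is read from this 0. Timp2, an inhibitor of metalloproteinases, had 100%, and Serpinh1, the collagen chaperone, 73.7% against 0.1% of all other cells.

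Lrat was read beside the other genes of retinoid storage. Of 15 such genes, 4 were in the table, 3 of them listed for HSC / fibroblast and 0 for Endothelial cell. This stood against 30.5% and 5.58% of the 1755 genes. The 3 genes, Lrat among them, were in the table through HSC / fibroblast alone, and nothing is read from the 3 or from the 0. Beside Lrat, Cyp26b1, which encodes an enzyme that degrades retinoic acid, had a value above 0 in 57.9% of the cells of HSC / fibroblast and in 7.3% of all other cells. Of 17 genes of TGF-β and PDGF signalling, 6 were in the table and 3 were listed for HSC / fibroblast. These were the receptor genes Tgfbr3 (94.7% against 0.3%) and Pdgfra (94.7% against 0.9%), and Id3 (84.2% against 38.2%). For Endothelial cell 1 was listed, the inhibitor Smad7, with a lower share inside the cluster (21.3%) than outside it (40.6%).

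**Figure D3:**
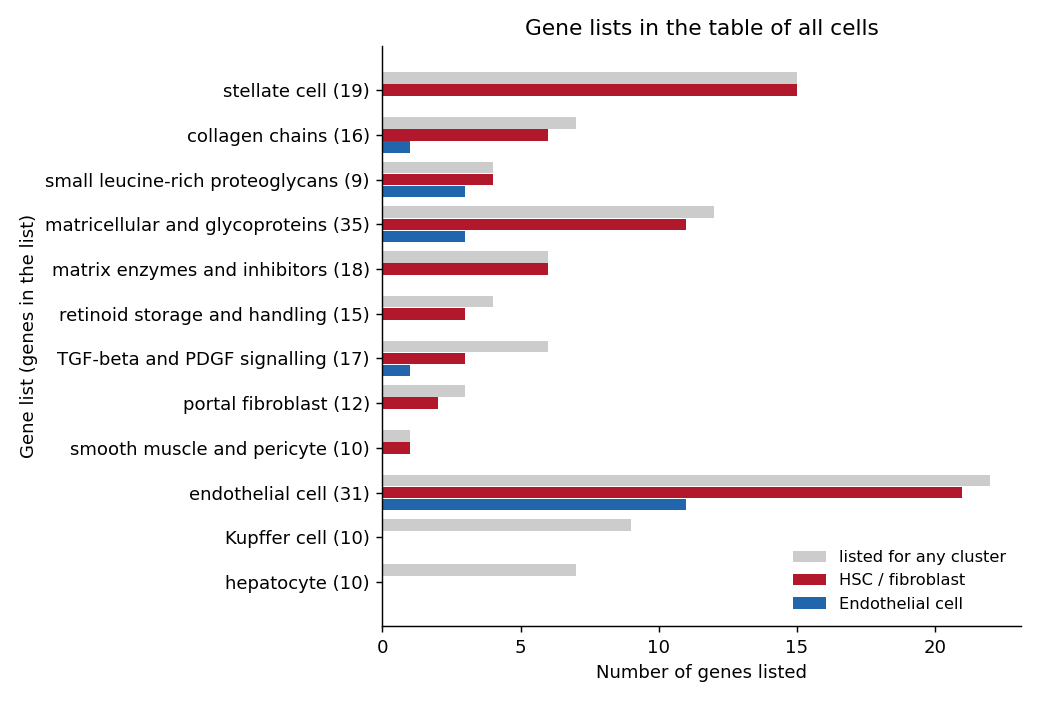
Number of genes of each list (x axis) that were listed for any cluster (grey), for HSC / fibroblast (red) and for Endothelial cell (blue). The size of each list stands in parentheses after its name. HSC / fibroblast has 15 stellate cell genes and 21 endothelial cell genes, and Endothelial cell 0 and 11.

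Both cluster names were set beside marker genes. Of 19 stellate cell genes, 15 were in the table. All 15 were listed for HSC / fibroblast, with shares of 57.9% to 100%, and 0 for Endothelial cell. Of the 1755 genes, 30.5% and 5.58% were listed for these clusters. Among the 15 is the member Lrat, and all but Cxcl12 and Ecm1 were in the table through HSC / fibroblast alone. The list was also chosen with earlier results of these data known, so nothing is read from 15 of 15. Reln, which encodes reelin, had 100% against 13.4%, Hgf, the hepatocyte growth factor gene, 100% against 5.6%, and Des, the intermediate filament gene desmin, 73.7% against 7.1%. The transcription factor genes Lhx2 (89.5% against 0.2%) and Tcf21 (73.7% against 0.1%) were nearly absent outside the cluster. Of 12 portal fibroblast genes, 3 were in the table, and 2 of these were listed for HSC / fibroblast, Gsn (89.5%) and Pdgfra. Of 10 smooth muscle and pericyte genes, 1 was in the table, Mylk, and it was listed for HSC / fibroblast (84.2% against 34.5%). None of the 8 mesothelial and 5 cholangiocyte genes was in the table, which does not show that they are absent from the cells.

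The endothelial genes stood in both clusters. Of 31 endothelial cell genes, 22 were in the table, 21 were listed for HSC / fibroblast and 11 for Endothelial cell, and 10 for both. The shares over the 1755 genes were 30.5% and 5.58% for these clusters. The median share was 68.4% (26.3 to 100%) over the 21 genes in HSC / fibroblast and 32.4% (27.8 to 38.0%) over the 11 in Endothelial cell. Over all genes listed for these clusters it was 73.7% and 29.6%, so the endothelial genes lay below the first median and above the second. Several of the 21, such as Stab2, Plvap and Eng, were in the table through HSC / fibroblast alone. Eng, a TGF-β co-receptor gene of endothelium that other cells also express, had 100% in HSC / fibroblast, Plvap 89.5%, and Pecam1, Cdh5 and Stab2 73.7% each. Pecam1, Cdh5 and Stab2, which are defining genes of endothelium and sinusoidal endothelium, had no row for Endothelial cell. Pecam1 was also listed for Kupffer cells (30.1%) and T cells (35.8%), and Cdh5 for Kupffer cells (26.5%). The 11 genes listed for Endothelial cell included Clec4g (33.3% against 14.8%), Gpihbp1 (32.4% against 1.3%) and Dnase1l3 (29.6% against 0.5%). Among them, Kdr, the VEGF receptor gene, was listed for Endothelial cell (30.6% against 5.4%) and not for HSC / fibroblast. The cluster named HSC / fibroblast thus held stellate, matrix and endothelial genes together, and the part of mixed droplets in this was not tested. The share of a matrix gene in HSC / fibroblast therefore stands beside endothelial genes in the same cells or droplets. Of the 7 hepatocyte, 5 B cell, 6 T cell and 5 neutrophil genes in the table, 0 were listed for either cluster. Every row has a positive fold change, and the other cells are mostly hepatocytes, so hepatocyte genes could hardly be listed here. The 0 does not show that RNA of these cell types is absent from either cluster. For Endothelial cell, 0 of the 15 stellate cell genes in the table were listed. With only 5.58% of the 1755 genes listed for that cluster, nothing is read from this 0.

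Of the genes listed for both clusters, 67 in all, the 4 members were not alone in being more frequent in HSC / fibroblast. These 67 genes were 68.4% of the Endothelial cell list and 12.5% of the HSC / fibroblast list. Every one of them had the higher share in HSC / fibroblast, by a median of 50.2 percentage points, and so did each of the 10 endothelial genes among them. The median share over all listed genes was 73.7% in HSC / fibroblast and 29.6% in Endothelial cell. The direction thus partly follows from which genes were listed, and nothing is read from it. The differences of Dcn (51.9) and Sparc (50.9) lay near this median, Bgn above it and Postn below it. In HSC / fibroblast 531 of 535 genes had a higher share than in all other cells, and in Endothelial cell 62 of 98. No depth is given for either cluster, so the shares were not compared at equal depth.

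**Figure D4:**
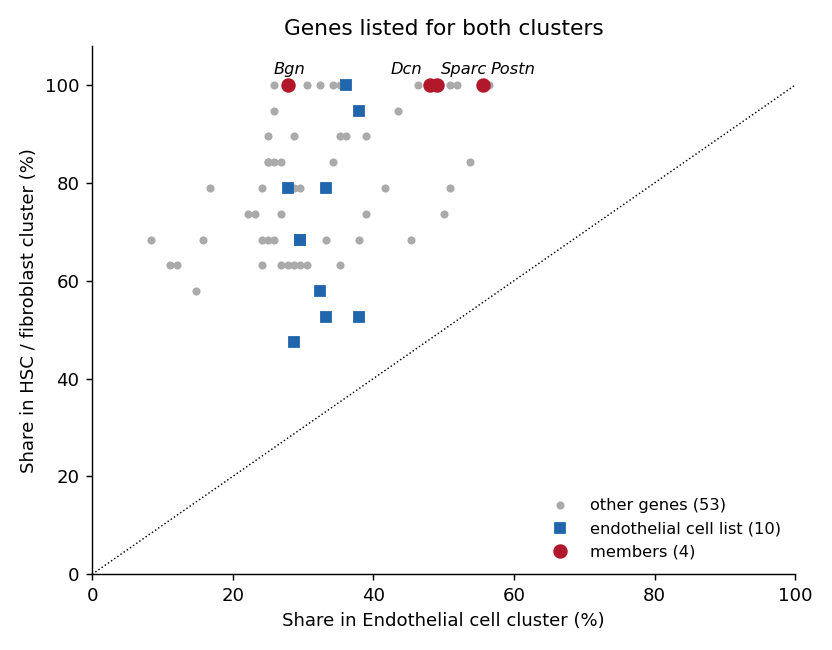
Share in the Endothelial cell cluster (x axis, in %) against the share in the HSC / fibroblast cluster (y axis, in %) for the 67 genes listed for both. Circles are the 4 members, squares the 10 genes of the endothelial cell list and dots the other genes, and the dotted line marks equal shares. Every point lies above the line, and the members lie at 100% on the y axis.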

How the data were processed

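Per the labels, 2 libraries (1 per condition) were counted with Cell Ranger on mm10. In Seurat, the authors kept cells with 200 to 3000 genes and at most 50% mitochondrial genes (the upper gene limit being meant for doublets, for which no caller was applied here), normalized each cell to 10000 with a natural log, clustered on 50 principal components at resolution 5 and ran FindAllMarkers on pooled libraries. The authors deposited, per gene and cluster, the fraction of cells with a value above 0 inside and outside the cluster, printed here as a percentage. Their fold changes and p-values, which are their own comparisons, were not used except to see that every fold change is positive. Depth is unknown.

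The members and lists were chosen with earlier results of these data known. Named genes were the members, listed genes of the lists, the 10 genes with the largest share difference per cluster and the 3 nearest genes per member. Cluster sizes came from least squares on the balance of shares, tested on simulated data. Alternatives were least absolute deviations, rows at least 10 points apart, genes listed for at least 3 clusters, single rows, differences of at least 25 or 50 points, Poisson ratios and mean distances. Motifs and the comparison of both tables were chosen after the files were seen. Python 3.11.15, NumPy 2.4.6, pandas 2.3.3, SciPy 1.17.1 and Matplotlib 3.10.9 were used, with GENCODE M21 and RefSeq (GRCm38.p6). The values of 1 listed gene are not reported here.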

Additional observations from a re-analysis of the deposited data

How the results depend on the processing

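The shares outside the listed clusters stayed within their rounding range under every alternative for cluster sizes and for single rows, and the relative sizes of both clusters moved by less than 0.05 percentage points. The portions of cells above 0 moved by more than rounding. With sizes by least absolute deviations, the portion in HSC / fibroblast was 1.29% for Dcn, 0.862% for Postn, 1.15% for Sparc, 2.64% for Bgn and 2.26% for Lrat, and in Endothelial cell 3.65% for Dcn, 2.82% for Postn, 3.33% for Sparc and 4.32% for Bgn. With rows at least 10 points apart, it was 1.36% for Dcn, 0.911% for Postn, 1.22% for Sparc, 2.79% for Bgn and 2.39% for Lrat in HSC / fibroblast. With genes listed for at least 3 clusters, it was 1.34%, 0.896% and 1.20% for Dcn, Postn and Sparc in HSC / fibroblast, and 3.71%, 2.86%, 3.38% and 4.38% for Dcn, Postn, Sparc and Bgn in Endothelial cell. Counting only shares at least 25 points higher, Endothelial cell had 6 endothelial genes and 4 matrix genes, against 0.855% of the 1755 genes. The 4 were Igfbp7 and the members Postn, Dcn and Sparc, which were chosen from these rows, so nothing is read from the 4. Both clusters shared 14 genes, which were 93.3% of the 15 counted for Endothelial cell and 2.70% of the 518 for HSC / fibroblast. At 50 points, Endothelial cell had 0 endothelial genes, 0 matrix genes and 0 members, and 0 genes were shared, since no difference in that cluster reached 50 points. If counts were Poisson, the ratio of transcripts per cell between HSC / fibroblast and all other cells would be 224 for Col3a1 and 42.4 for Lrat, in place of the ratio of shares. It has no finite value for the members at 100%. No paired analysis was possible because the libraries are pooled and each condition has 1. By the mean difference of the shares, all 3 nearest genes of Postn, Col3a1 and Lrat, 2 of those of Dcn and of Sparc, and 1 of those of Bgn were kept. The number of cells behind each share limits its precision. It is not in the tables and was not inferred from them.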

Other observations

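In the Endothelial cell cluster, 36 of the 98 listed genes had a lower share inside the cluster than outside it, although each is listed with a positive fold change. In HSC / fibroblast this held for 4 of 535 genes. Selenop, which encodes a selenium transport protein made by hepatocytes, was listed for Endothelial cell with 83.3% of the cells inside the cluster and 92.7% outside it, and was chosen for mention after its values were seen.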
